A study of Mus musculus with 22 samples.

Results

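The expression of 9 genes that mark the projection neurons of the striatum was examined in the striatum libraries of a mouse study of thyroid hormone. The genes were taken as a list. Drd1, Pdyn and Tac1 stand for the direct pathway, Drd2, Adora2a and Penk for the indirect pathway, and Ppp1r1b, Rgs9 and Rasd2 are expressed by both. They are 9 of the 55341 rows of the striatum count table, and all 9 were among the 15827 genes with a mean normalised count above 10. RNA was sequenced from striatum (10 libraries) and white adipose tissue (WAT, 12 libraries) of wild-type C57BL/6J mice labelled as male and 8 weeks old. The 2 striatum controls (replicates 3 and 6) are labelled as hypothyroid after 2 weeks of propylthiouracil (PTU), which blocks thyroid hormone synthesis. The other striatum libraries are labelled with thyroid hormone (TH) for 12 h (4 libraries) or 24 h (4 libraries). The labels do not say whether these TH animals also received PTU. The paper's overview of its datasets lists a single intraperitoneal injection of both thyroid hormones for striatum and leaves the entry for hypothyroidism blank, whereas the control labels name PTU.

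Most neurons of the striatum are GABAergic projection neurons. Those of the direct pathway carry the D1 dopamine receptor and the peptides dynorphin and substance P, project to the substantia nigra and facilitate movement. Those of the indirect pathway carry the D2 dopamine receptor, the adenosine receptor encoded by Adora2a, and enkephalin, project to the external pallidum and restrain movement. Dopamine raises cAMP in the former and lowers it in the latter. Rasd2, which encodes the small GTPase Rhes, has long been known as a gene that thyroid hormone regulates in the striatum.

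Striatum libraries held 8.06 to 10.2 M counts. Hr, a direct target of the thyroid hormone receptor, had 38.8 and 57.4 normalised counts without TH, 245 to 295 at 12 h and 255 to 381 at 24 h. It rose at both times, with log2 changes of 2.49 ± 0.21 (SE, adjusted p 0.00260) and 2.68 ± 0.21 (adjusted p 0.00125, edgeR quasi-likelihood test). The libraries also differed in the level of striatal markers. The level of 8 other genes of projection neurons (among them Pde10a, Adcy5, Scn4b, Ptpn5, Gng7, Rarb and Bcl11b), taken as 1 at the PTU mean, was 0.827 and 1.17 in PTU replicates 3 and 6. It was 0.813, 0.596, 0.592 and 0.551 in TH 12 h replicates 1 to 4, and 1.20, 0.0821, 1.33 and 0.666 in TH 24 h replicates 1 to 4. Slc17a7, the vesicular glutamate transporter of cortical neurons, ran the other way, with 1814 and 3509 normalised counts in PTU, 5026 to 9196 at 12 h, and 2686 to 7599 at 24 h apart from replicate 2, which had 12586. The 10 genes listed for cortical excitatory neurons summed to 5835 to 9213 normalised counts in PTU, 11289 to 16715 at 12 h and 7573 to 15602 at 24 h without replicate 2. In that replicate the sum was 26523, 9 of the 10 cortical genes had their highest count of all libraries, and all 9 genes examined here and all 8 reference genes had their lowest. The library labelled TH 24 h replicate 2 therefore lacked most of the markers of its labelled tissue, and results are given with and without it. Xist was high and Y-linked genes near 0 in PTU replicate 6, TH 12 h replicate 1 and all TH 24 h libraries, against their labels, and the reverse held in the other 4.

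**Figure D1:**
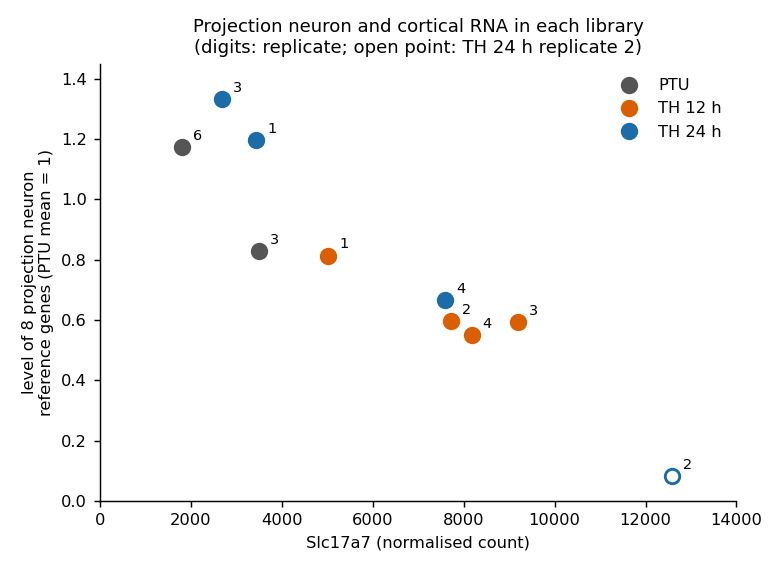
Each point is 1 striatum library, with the normalised count of Slc17a7 on the x axis and the level of the 8 projection neuron reference genes, relative to the PTU mean, on the y axis. The 3 TH 12 h libraries other than replicate 1 lie between 0.551 and 0.596 on the y axis, below both PTU libraries (0.827 and 1.17), and TH 24 h replicate 2 (open point) lies at 0.0821.

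The genes lie apart in the genome (GRCm38, GENCODE M21 annotation). Drd1 is at chr13:54051183-54055705, Pdyn at chr2:129686565-129699844 and Tac1 at chr6:7554879-7565834. Drd2 is at chr9:49340627-49408177, Adora2a at chr10:75316877-75334784 and Penk at chr4:4133531-4138819. Ppp1r1b and Rgs9 share a chromosome, at chr11:98348404-98357796 and chr11:109225355-109298129, and Rasd2 is at chr8:75213944-75224113. Genes on the opposite strand cover 14.3% of the exonic bases of Penk (A830012C17Rik) and 15.7% of those of Ppp1r1b (1700003D09Rik), and since the strand setting of the counting is not stated, reads there cannot be told apart. The other 7 genes shared no exonic base with another gene.

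Levels per length were compared as CPM (counts scaled to a common library size) per kilobase of exon. In PTU, Penk stood highest with 741 ± 208 CPM per kb (SD, n = 2), followed by Ppp1r1b with 225 ± 71.0 and Tac1 with 118 ± 27.7. Rasd2 (83.5 ± 37.7), Drd2 (70.4 ± 22.1), Drd1 (66.1 ± 17.6) and Adora2a (60.8 ± 12.7) followed, and from Tac1 to Adora2a neighbours differed by less than the larger of their SDs. Pdyn (44.7 ± 8.35) and Rgs9, the lowest with 21.1 ± 5.64, each lay below the gene before it with no overlap of libraries. At 12 h Rasd2 stood above Tac1 in mean level, with 96.0 ± 20.1 against 44.1 ± 11.8 CPM per kb (SD, n = 4). At 24 h without replicate 2, Rasd2 had 179.7 ± 52.2 and Pdyn, with 21.3 ± 5.73, had the lowest mean in place of Rgs9, with 35.6 ± 12.2 (SD, n = 3), though the libraries of these 2 genes overlapped.

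Promoter sequence was available from RefSeq (GRCm38.p6) for 6 of the 9 genes, namely Drd1, Pdyn, Tac1, Drd2, Rgs9 and Rasd2. The 250 bases before the start of Rasd2, Rgs9 and Pdyn are shown, as examples of genes whose counts relative to other projection neuron genes were higher (Rasd2, Rgs9) or lower (Pdyn) in the TH libraries. The window of Tac1 runs into its annotated gene and is not printed. The letters searched on both strands were AGGTCA (a single site of a thyroid hormone response element), the same letters as a direct repeat with a gap of 4 bases (DR4), the cAMP response element TGACGTCA and its shorter form, TGACG, which lies within it, and the TATA box, TATAAA. Capitals mark a match.
Rasd2, chr8:75213694-75213943, plus strand: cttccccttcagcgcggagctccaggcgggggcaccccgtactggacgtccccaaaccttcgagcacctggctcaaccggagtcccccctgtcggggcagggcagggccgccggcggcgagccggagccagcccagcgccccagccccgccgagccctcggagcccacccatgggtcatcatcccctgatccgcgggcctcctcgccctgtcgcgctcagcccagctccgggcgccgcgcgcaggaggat
Rgs9, chr11:109298182-109298431, minus strand: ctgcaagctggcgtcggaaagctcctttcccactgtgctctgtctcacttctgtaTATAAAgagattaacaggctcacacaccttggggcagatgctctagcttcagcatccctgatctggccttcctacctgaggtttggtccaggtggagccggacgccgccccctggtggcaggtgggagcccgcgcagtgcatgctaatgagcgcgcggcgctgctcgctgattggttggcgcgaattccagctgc
Pdyn, chr2:129699939-129700188, minus strand: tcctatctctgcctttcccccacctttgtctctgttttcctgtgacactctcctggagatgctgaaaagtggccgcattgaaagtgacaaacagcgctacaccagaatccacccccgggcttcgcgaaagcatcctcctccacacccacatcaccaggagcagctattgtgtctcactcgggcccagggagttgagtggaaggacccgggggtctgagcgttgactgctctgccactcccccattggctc
The letters AGGTCA occurred in none of the 6 windows and in 14.02% of the 32851 RefSeq windows of this length, and DR4 occurred in 0.0152% of them. TATAAA was found in Rgs9 alone of the 6, 195 bases before the start, and in 12.4% of all windows. The shorter cAMP element was found in Tac1 alone, at 2 places, against 17.8% of all windows, and the whole element, held by 1.55%, was in none of the 6. These matches describe letters in a short window only.

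Among the direct pathway genes, Tac1, which encodes substance P, had 3163 and 4416 normalised counts in PTU replicates 3 and 6. It had 1949, 1235, 1377 and 1083 in TH 12 h replicates 1 to 4 and 2689, 390, 2734 and 1405 in TH 24 h replicates 1 to 4. All 8 TH libraries thus lay below both PTU libraries. Pdyn, which encodes prodynorphin, had 1053 and 1374 in PTU, 786, 545, 493 and 421 at 12 h, and 623, 291, 707 and 405 at 24 h. It too was below PTU in each TH library, including 24 h replicates 1 and 3, whose reference levels were above those of both PTU libraries. Drd1 had 1831 and 2683 in PTU, 1668, 1129, 1044 and 983 at 12 h, and 2757, 151, 2824 and 1272 at 24 h. The 12 h libraries were all below PTU, whereas 24 h replicates 1 and 3 were above both controls.

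Of the indirect pathway genes, Penk, the enkephalin precursor, had 9128 and 13643 normalised counts in PTU, 6346, 3743, 3266 and 3654 at 12 h, and 8594, 228, 9622 and 4193 at 24 h. The 12 h libraries lay below PTU and the 24 h libraries overlapped with it. Adora2a had 1491 and 2010 in PTU, 1270, 795, 757 and 717 at 12 h, and 1638, 22.4, 1799 and 892 at 24 h, the same order of libraries as Penk at 24 h. Drd2 had 1313 and 2062 in PTU, 1421, 870, 879 and 832 at 12 h, and 2044, 31.4, 2151 and 941 at 24 h. Its groups overlapped in each contrast, with TH 12 h replicate 1 inside the PTU range.

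The genes of both pathways behaved less alike. Ppp1r1b, which encodes DARPP-32, the protein through which dopamine and cAMP control phosphatase 1, had 4823 and 7589 normalised counts in PTU, 5655, 3978, 3687 and 3819 at 12 h, and 7013, 237, 8182 and 4512 at 24 h. Rgs9, the regulator that speeds the shutting off of G proteins at the D2 and opioid receptors, had 1026 and 1506 in PTU, 1467, 1070, 1195 and 1115 at 12 h, and 2153, 95.3, 2867 and 1406 at 24 h. Rasd2 had 1700 and 3291 in PTU, 3756, 2712, 2563 and 2448 at 12 h, and 6092, 591, 6435 and 3580 at 24 h. Without TH 24 h replicate 2, Rasd2 was above both controls in every 24 h library, and the libraries of Ppp1r1b and Rgs9 overlapped with PTU.

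**Figure D2:**
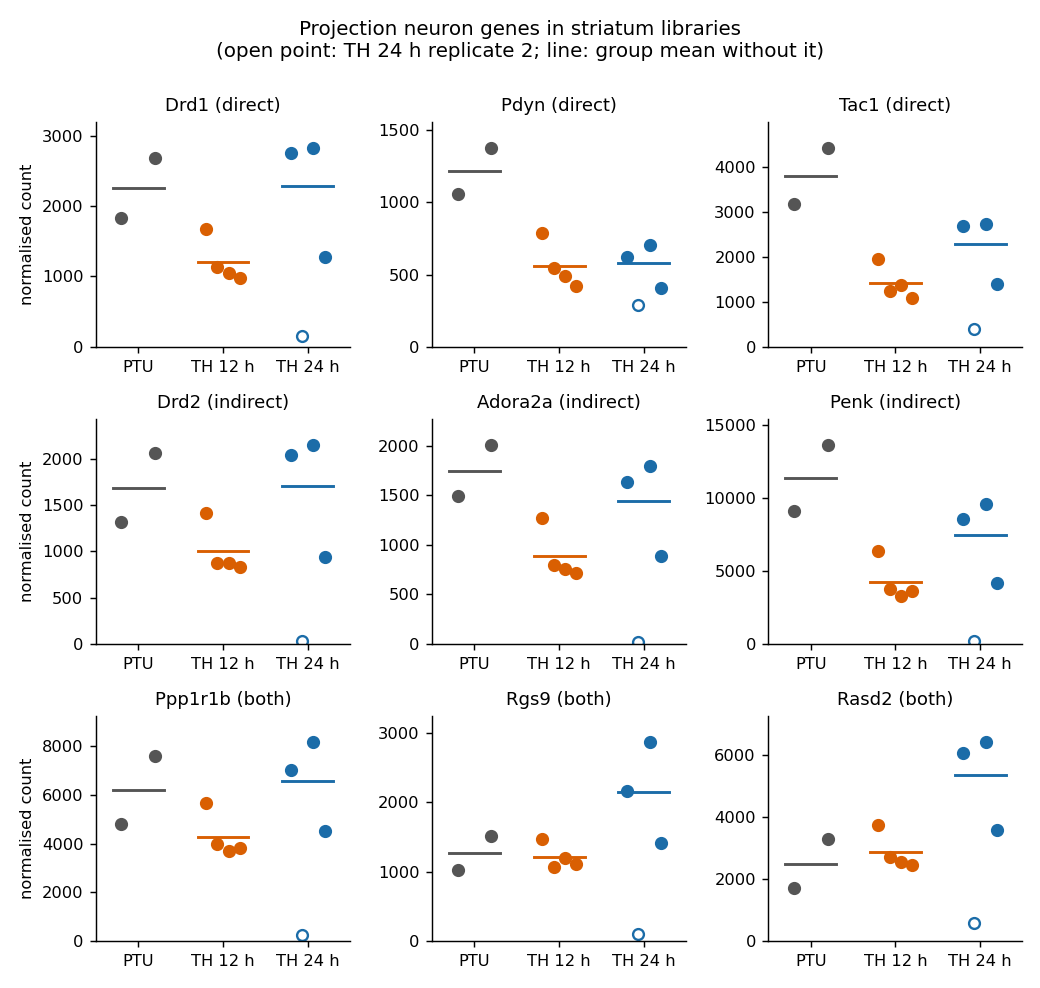
Each panel shows the normalised count of 1 gene (y axis, from 0) in the 10 striatum libraries by group, with a line at the group mean without TH 24 h replicate 2, which is drawn as an open point. Pdyn and Tac1 lie below PTU in all 8 TH libraries, and Rasd2 reaches 6435 at 24 h against at most 3291 in PTU.

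The first comparison asked what 12 h of TH changed. With all 10 libraries, none of the 9 genes was called at an adjusted p under 0.05 by edgeR, where 0.96% of all genes tested were. Pdyn and Tac1 were the 2 with an unadjusted p under 0.05, beside 3197 of the 15827 genes tested. DESeq2 called Pdyn alone of the 9, beside 802 genes over the whole table. The smallest adjusted p was that of Pdyn, with a log2 change of -1.11 ± 0.31 (SE, adjusted p 0.0969), followed by Tac1 with -1.43 ± 0.54 (adjusted p 0.180). Groups did not overlap for 5 of the 9, Drd1, Pdyn, Tac1, Adora2a and Penk, all lower at 12 h, beside 17.5% of all genes tested. TH 24 h replicate 2 is in neither group of this contrast and acted through the spread that the 3 groups share. Without it, 4 genes were called lower, beside 3.22% of all genes (7.93% in either direction). The log2 changes (± SE, edgeR) were -1.43 ± 0.26 for Tac1 (adjusted p 0.0147), -1.12 ± 0.24 for Pdyn (adjusted p 0.0220), -1.43 ± 0.31 for Penk (adjusted p 0.0250) and -0.99 ± 0.27 for Adora2a (adjusted p 0.0465). Each pathway contributed 2 of the 4. Drd1 had -0.91 ± 0.29 (adjusted p 0.0761), Drd2 -0.76 ± 0.31 (adjusted p 0.143), Ppp1r1b -0.54 ± 0.24 (adjusted p 0.183), Rgs9 -0.07 ± 0.24 (adjusted p 0.887) and Rasd2 0.19 ± 0.28 (adjusted p 0.706). The median over the 9 was -0.91, beside 0.00 over all genes tested. The reference genes also had lower values in these libraries, with a median of -0.61 over the 8, and Slc17a7 was called higher, by 1.50 ± 0.41 (adjusted p 0.0487). The 5 genes listed for oligodendrocytes summed to 27580 to 41083 normalised counts in PTU and 19808 to 27968 at 12 h. The 5 genes listed for thalamic neurons summed to 711 to 759 in PTU and 825 to 1411 at 12 h, with Calb2 (2.36 ± 0.50, adjusted p 0.0219) and Slc17a6 (1.62 ± 0.43, adjusted p 0.0418) called higher without TH 24 h replicate 2. The other 3 thalamic genes had negative log2 changes and were not called, and the median over the 5 was -0.05. Calb2 was also listed for striatal interneurons. Mitochondrial genes took 17.3% and 17.7% of counts in PTU and 13.99% to 16.2% at 12 h. With the level of the cortical list as a term in the fit of all libraries, 6 of the 9 changes turned positive, among them Penk (0.15) and Adora2a (0.41), and Tac1 (-0.42) and Pdyn (-0.59) were not called. Rasd2 was called higher with that term, among 471 genes called. Beyond that term, the part of these other cells and of RNA composition in the lower counts was not tested. In such bulk samples fewer projection neurons in the piece and less RNA per neuron cannot be told apart, and no label says that the replicates are separate animals, so that p-values measure the spread between these samples.

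The second comparison asked the same at 24 h. None of the 9 genes was called with all libraries, beside 0.348% of all genes tested, nor without replicate 2, beside 0.725%. At an unadjusted p under 0.05 it was 1 gene (Pdyn) with all libraries, beside 1524 of the 15827 genes tested. Without the replicate it was 4 (Pdyn, Tac1, Rgs9 and Rasd2), beside 1588 of 15857. DESeq2 called Pdyn with all libraries, among 203 genes called. Pdyn was also called lower at 24 h with no filter in edgeR (-1.26, adjusted p 0.0340), among 104 genes called. With the cortical term in edgeR, Pdyn was called lower (-0.82, adjusted p 0.0400) and Rasd2 higher at 24 h, among 263 genes called. With all libraries Pdyn had a log2 change of -1.26 ± 0.32 (SE, adjusted p 0.172, edgeR), and without replicate 2 -1.09 ± 0.25 (adjusted p 0.0999). Rasd2 had 0.74 ± 0.67 (adjusted p 0.762) with all libraries and 1.08 ± 0.30 (adjusted p 0.194) without replicate 2. Tac1 had -0.76 ± 0.28 (adjusted p 0.377), Rgs9 0.74 ± 0.26 (adjusted p 0.332) and Penk -0.63 ± 0.34 (adjusted p 0.610) without replicate 2. The dopamine receptors had log2 changes of -0.00 ± 0.31 (Drd1, 95% confidence interval -0.62 to 0.61) and -0.00 ± 0.33 (Drd2, -0.65 to 0.65). With all libraries those of Pdyn and Tac1 lay below PTU, beside 8.47% of all genes. Without replicate 2 the same 2 did, beside 11.7%, and those of Rasd2 above it, beside 13.6%.

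Between 24 h and 12 h no gene of the 9 was called by edgeR or DESeq2 with all libraries, none had an unadjusted p under 0.05, and their groups overlapped for all 9, where 8.3% of all genes did not overlap. Over all genes tested edgeR called 0 (2309 at an unadjusted p under 0.05) and DESeq2 244. Without replicate 2 the groups still overlapped for all 9, beside 17% of genes that did not, and all 9 log2 changes were positive, with a median of 0.76 beside -0.01 over all genes. Drd1 (0.91 ± 0.26, adjusted p 0.0883), Rasd2 (0.89 ± 0.24, adjusted p 0.0783) and Rgs9 (0.81 ± 0.21, adjusted p 0.0720) came nearest to the threshold, which 0.492% of all genes passed, and Pdyn was at 0.03 ± 0.22 (adjusted p 0.956, edgeR). All of the 9 but Pdyn had an unadjusted p under 0.05 in this edgeR fit without replicate 2, beside 3477 of the 15857 genes tested. The 8 reference genes had a median of 0.79 in the same contrast.

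**Figure D3:**
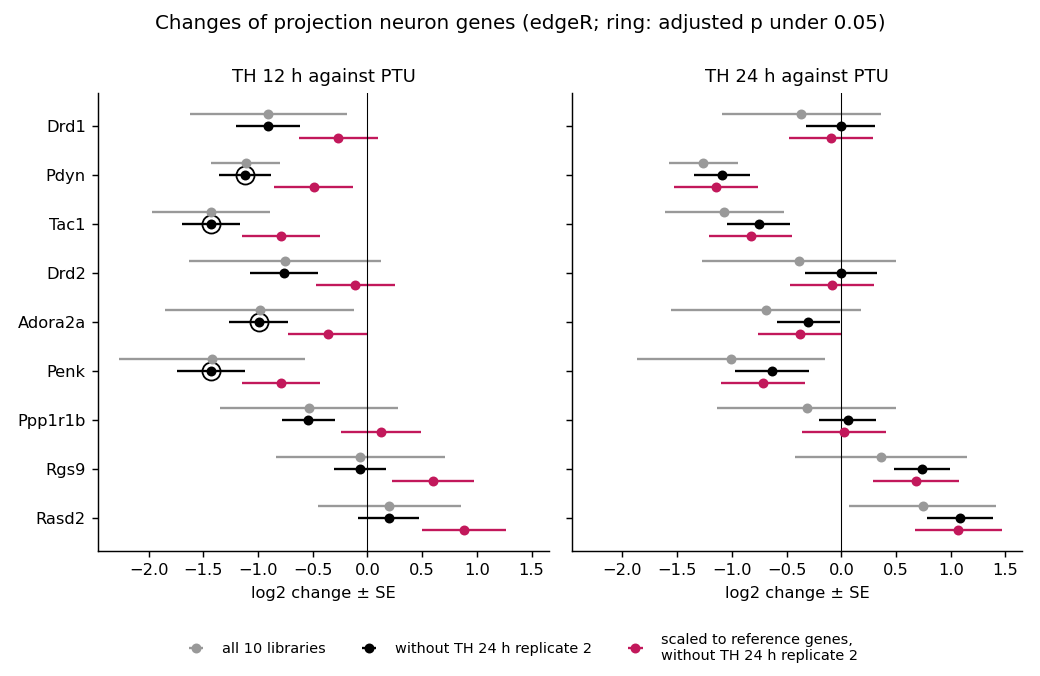
Log2 change ± SE of each gene (x axis) at 12 h (left) and 24 h (right) against PTU, from the edgeR fit of all 10 libraries (grey), without TH 24 h replicate 2 (black), and without it and scaled to the reference genes (magenta), where a ring marks an adjusted p under 0.05. The 4 rings are those of Pdyn, Tac1, Adora2a and Penk at 12 h without that replicate, and none of them is kept under the scaling.

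To set the genes against the amount of projection neuron RNA, counts were scaled to the 8 reference genes, without TH 24 h replicate 2. Under this scaling the spread within groups shrank and the 9 genes parted into 3 patterns. Tac1 had 3824 and 3765 scaled counts in PTU, 1967 to 2396 at 12 h and 2049 to 2249 at 24 h. Penk had 11035 and 11632 in PTU, 5514 to 7801 at 12 h and 6299 to 7214 at 24 h. Both peptide precursors thus lay well below PTU at both times, with the 24 h libraries inside the range of the 12 h libraries. Pdyn had 1273 and 1172 in PTU, 764 to 967 at 12 h and 521 to 609 at 24 h, a separate range for each group. Adora2a was also below PTU at both times, with 1714 to 1803 against 1278 to 1561 and 1340 to 1370. Rasd2 had 2055 and 2806 in PTU, 4327 to 4617 at 12 h and 4825 to 5378 at 24 h. Rgs9 had 1240 and 1284, then 1795 to 2025 and 1801 to 2149. These 2 genes lay above PTU in each of the 7 TH libraries. Drd2, at 1587 to 1759, 1460 to 1746 and 1413 to 1709, and Ppp1r1b, at 5830 to 6471, 6225 to 6952 and 5865 to 6778, overlapped between groups, and Drd1 overlapped at 24 h but not at 12 h (1763 to 2050 against 2213 to 2287).

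In the edgeR fit with this scaling none of the 9 genes was called, beside 6.14% of all genes tested at 12 h and 0.168% at 24 h (6.37% between the times). At 12 h the log2 changes were -0.79 ± 0.36 for Tac1 (adjusted p 0.130), -0.79 ± 0.36 for Penk (0.132), -0.49 ± 0.36 for Pdyn (0.284) and 0.88 ± 0.38 for Rasd2 (0.118). At 24 h they were -0.83 ± 0.38 for Tac1, -0.72 ± 0.38 for Penk, -1.14 ± 0.38 for Pdyn and 1.07 ± 0.40 for Rasd2, with adjusted p-values of 0.668 for Pdyn and above 0.99 for the others. Rgs9 was at 0.60 ± 0.37 and 0.68 ± 0.39. The scaling moved the median of all genes to 0.65 at 12 h and left it at -0.00 at 24 h, so at 12 h the change of Rgs9 was not above that of the middle gene. At 12 h the 5 genes below PTU stand beside 0.628% of all genes and the 2 above it beside 49.6%. With the median of all genes at 0.65, few genes of any kind lay below PTU. The 8 reference genes, to which the counts were scaled, had log2 changes of -0.37 to 0.23 (median 0.04). Drd1 (-0.26 ± 0.36) and Adora2a (-0.36 ± 0.36) lay within that range. At 24 h the 4 genes below stand beside 2.77% and the 2 above beside 2.54%. Between the times, Pdyn was lower at 24 h with no overlap, beside 12.9% of all genes, and Rasd2 higher, beside 0.118%. The median of all genes between the times was -0.64, so the change of Pdyn (-0.65 ± 0.33, adjusted p 0.123) was near that of the middle gene. Rasd2 changed by 0.18 ± 0.32 (adjusted p 0.602), and with a median that low few genes of any kind lay higher at 24 h.

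**Figure D4:**
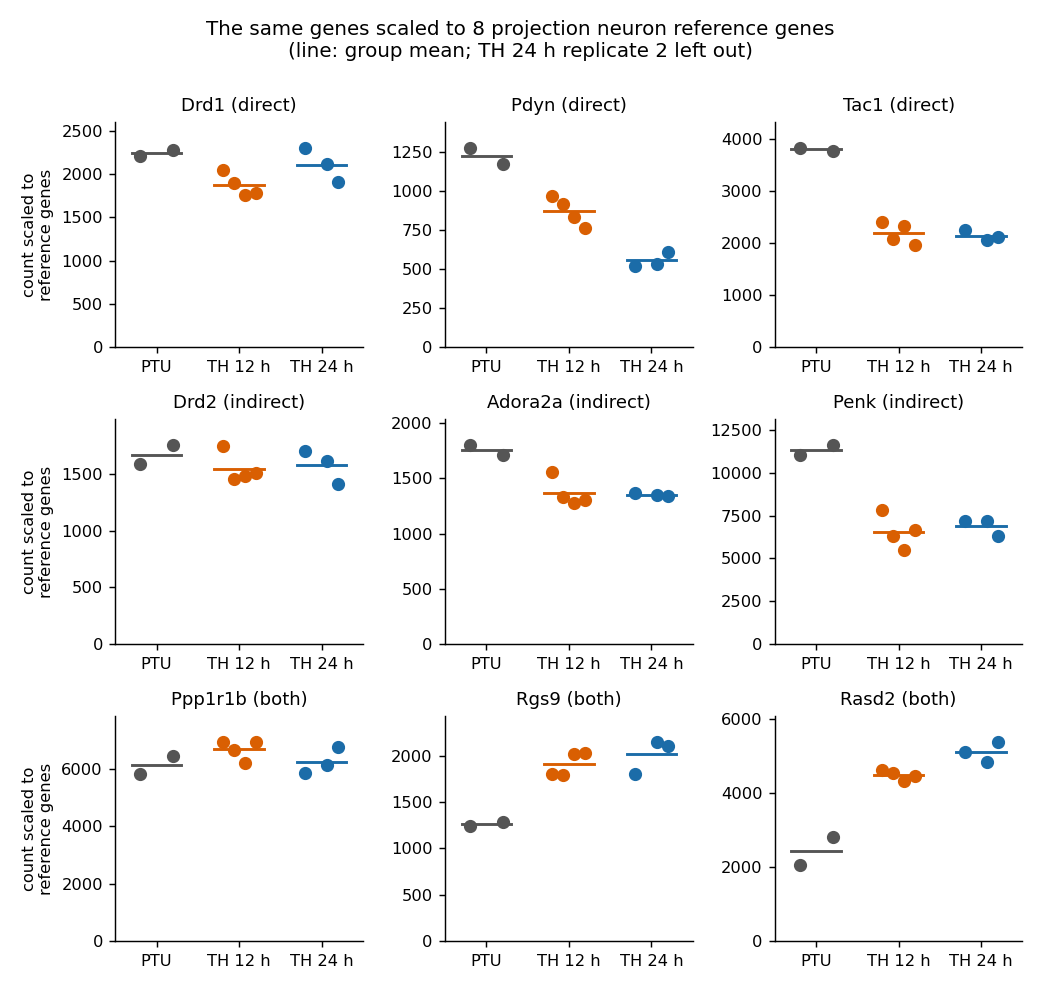
Counts scaled to the 8 projection neuron reference genes (y axis, from 0) in 9 striatum libraries by group, 1 panel a gene, with a line at the group mean and TH 24 h replicate 2 left out. Tac1, Penk, Pdyn and Adora2a lie below PTU and Rgs9 and Rasd2 above it in all 7 TH libraries, whereas Drd2 and Ppp1r1b overlap.

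Ratios of 2 of the genes within a library need no scaling at all. The balance of the dopamine receptors, Drd2 over Drd1, was 0.717 and 0.769 in PTU, 0.770 to 0.852 at 12 h and 0.740 to 0.762 at 24 h without replicate 2, where it was 0.210. The log2 ratio differed from PTU by 0.16 at 12 h (exact permutation p 0.133, adjusted 0.24 over 18 tests) and by 0.01 at 24 h without replicate 2 (exact p 1, adjusted 1). With 2 against 4 libraries the exact test cannot go below 0.133, and with 2 against 3 not below 0.2, so no contrast with PTU could pass. Adora2a over Drd1 was 0.749 and 0.815 in PTU, 0.704 to 0.761 at 12 h and 0.594 to 0.701 at 24 h without replicate 2. Penk over Pdyn, the peptides of the 2 pathways, was 8.66 and 9.93 in PTU, 6.62 to 8.68 at 12 h and 10.3 to 13.8 at 24 h without replicate 2, where it was 0.781. Penk over Tac1 stayed near 3, with 2.89 and 3.09 in PTU, 2.37 to 3.37 at 12 h and 2.99 to 3.52 at 24 h without replicate 2. The mean log2 count of the 3 indirect genes minus that of the 3 direct genes was 0.56 ± 0.06 in PTU (SD, n = 2), 0.65 ± 0.11 at 12 h (n = 4) and 0.85 ± 0.08 at 24 h without replicate 2 (n = 3), or 0.08 ± 1.54 with it (n = 4), a score over the chosen genes that was not tested.

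Of the 6 ratios tested, those that differed most from PTU, with TH 24 h replicate 2 left out, were the 2 among genes of both pathways. Rasd2 over Ppp1r1b was 0.353 and 0.434 in PTU, 0.641 to 0.695 at 12 h, and 0.787, 0.793 and 0.869 at 24 h, with 2.49 in replicate 2. It was above PTU in every TH library, by 0.78 on the log2 scale at 12 h and by 1.46 at 24 h, or 1.06 without replicate 2 (exact permutation p 0.133 and adjusted p 0.24 for both with all libraries, the smallest p these groups allow). Rgs9 over Ppp1r1b was 0.198 and 0.213 in PTU, 0.259 to 0.324 at 12 h and 0.307 to 0.350 at 24 h, with 0.404 in replicate 2. It was higher than PTU by 0.47 on the log2 scale at 12 h and by 0.73 at 24 h, or 0.65 without replicate 2. With all libraries the exact permutation p was 0.133 and the adjusted p 0.24 at both times. A test of the 8 TH libraries together against PTU, chosen after the values had been seen, gave an exact permutation p of 0.0444 for each of these 2 ratios, the smallest that 8 against 2 allows, and 0.133 after adjustment over 6 ratios. Without replicate 2 the exact p was 0.0556 for each, the smallest that 7 against 2 allows, and 0.167 after adjustment. Between 24 h and 12 h, Drd2 over Drd1, Adora2a over Drd1 and Rasd2 over Ppp1r1b had an exact p of 0.0286, the smallest for 4 against 4, and 0.171 after adjustment over 18 tests. Without replicate 2 these 3 and Penk over Pdyn had an exact p of 0.0571, the smallest for 3 against 4, and 0.257 after adjustment.

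Each peptide precursor was also set against Drd1 in the same library, as values with no test. Penk over Drd1 was 4.98 and 5.08 in PTU, 3.13 to 3.80 at 12 h and 3.12 to 3.41 at 24 h without replicate 2. Tac1 over Drd1 was 1.73 and 1.65 in PTU, 1.09 to 1.32 at 12 h and 0.968 to 1.10 at 24 h. Pdyn over Drd1 was 0.575 and 0.512, then 0.428 to 0.483, then 0.226 to 0.319. Apart from TH 24 h replicate 2, the TH libraries were below PTU for each of the 3, and for Pdyn the 24 h libraries were also below those of 12 h. Rasd2 over Drd1 was 0.928 and 1.23 in PTU, 2.25 to 2.49 at 12 h and 2.21 to 2.81 at 24 h. In TH 24 h replicate 2 these ratios were 1.50 for Penk, 2.57 for Tac1, 1.92 for Pdyn and 3.89 for Rasd2, so in the library with the fewest projection neuron counts Pdyn, Tac1 and Rasd2 were kept to a larger share than Drd1, and Penk to a smaller one. Among the 12 h libraries Rasd2 over Drd1 ran against the reference level, with 2.25 at a level of 0.813 and 2.49 at 0.551. At 24 h the order was not strict, with 2.21 at 1.20 and 2.28 at 1.33, and in PTU it was the other way round, with 0.928 at 0.827 and 1.23 at 1.17. The part of the reference level in the difference from PTU was not tested.

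**Figure D5:**
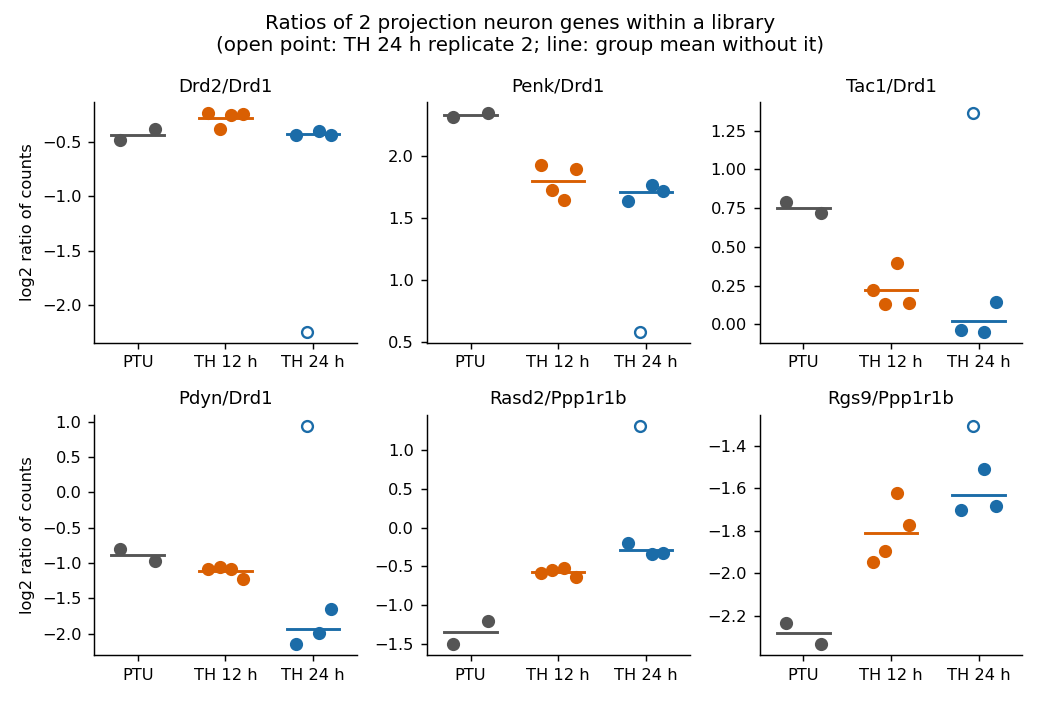
Log2 ratio of the counts of 2 genes within each striatum library (y axis) by group, with a line at the group mean without TH 24 h replicate 2, the open point. Drd2/Drd1 stays within 0.717 to 0.852 as a plain ratio in the 9 filled points. Among the filled points, those of TH lie below PTU for Penk/Drd1, Tac1/Drd1 and Pdyn/Drd1, and above it for Rasd2/Ppp1r1b and Rgs9/Ppp1r1b. The open point lies above PTU for Tac1/Drd1 and Pdyn/Drd1 (plain ratios 2.57 and 1.92).

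Libraries of like reference level were set side by side, a choice made after the levels had been seen and with 1 library on each side. PTU replicate 3 (reference level 0.827, Y-linked counts) and TH 12 h replicate 1 (0.813, high Xist) had 3163 and 1949 normalised counts of Tac1, 9128 and 6346 of Penk, 1053 and 786 of Pdyn, 1700 and 3756 of Rasd2, and 1313 and 1421 of Drd2. PTU replicate 6 (1.17) and TH 24 h replicate 1 (1.20), both with high Xist, had 4416 and 2689 of Tac1, 13643 and 8594 of Penk, 1374 and 623 of Pdyn, 3291 and 6092 of Rasd2, and 2062 and 2044 of Drd2. In both pairs the 3 peptide precursors were lower and Rasd2 higher with TH, and Drd2 differed little. The pairs were alike in reference level alone. Slc17a7 was 3509 against 5026 normalised counts in the first pair and 1814 against 3442 in the second, higher with TH in both. The part of this difference in cortical RNA was not tested.

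The ratios were also read within libraries of 1 kind by Xist. In those with high Xist, Penk over Drd1 was 5.08 in PTU, 3.80 at 12 h and 3.12 to 3.41 at 24 h, and Rasd2 over Ppp1r1b was 0.434, 0.664 and 0.787 to 0.869, in 1, 1 and 3 libraries. In those with Y-linked counts, Penk over Drd1 was 4.98 in PTU and 3.13 to 3.72 at 12 h, and Rasd2 over Ppp1r1b 0.353 and 0.641 to 0.695, in 1 and 3 libraries. The 24 h group held no library of the second kind.

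Of the other genes of the 2 pathways, 3 of the 12 tested were called at 12 h without TH 24 h replicate 2, beside 7.93% of all genes. Of 7 further genes of direct pathway neurons, none was called at 12 h with all libraries. Without TH 24 h replicate 2, 2 were called lower, the transcription factors Ebf1 (-1.15 ± 0.19, adjusted p 0.0108, edgeR) and Zfp521 (-0.63 ± 0.16, adjusted p 0.0393), 0 higher and 5 were not called. Of 5 tested genes of indirect pathway neurons, the kainate receptor gene Grik3 was called higher (0.58 ± 0.13, adjusted p 0.0273) and 4 were not called, among them Gpr6 (-0.83 ± 0.31, adjusted p 0.113). Under the reference scaling Ebf1 had -0.52 ± 0.37 (adjusted p 0.276), and Grik3 (1.27 ± 0.39, adjusted p 0.0288) and the transcription factor Sp9 (1.26 ± 0.40, adjusted p 0.0360) were called higher, where the median of all genes stood at 0.65. In that fit 6.14% of all genes were called. Of the 8 reference genes, Ptpn5, which encodes the phosphatase STEP, was called lower (-0.62 ± 0.17, adjusted p 0.0459) without the replicate. At 24 h none of these 20 genes was called in either fit.

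The proteins that carry the dopamine signal to cAMP and DARPP-32 were followed in 17 genes. None was called with all libraries in any contrast. At 12 h without TH 24 h replicate 2, 3 were called lower and 1 higher, and 13 were not called, beside 7.93% of all genes called in either direction. Those lower were Gnb5, the G protein subunit that stabilises the Rgs9 protein (-0.71 ± 0.14, adjusted p 0.0171, edgeR), and the cAMP-regulated phosphoproteins Arpp21 (-0.77 ± 0.17, adjusted p 0.0236) and Arpp19 (-0.62 ± 0.14, adjusted p 0.0293). Prkaca, the catalytic subunit of protein kinase A, was higher (0.44 ± 0.10, adjusted p 0.0279). Under the reference scaling Gnb5, Arpp21 and Arpp19 were at -0.05, -0.12 and 0.02, within their errors of 0. The median in that fit was 0.54 over the 17 genes and 0.65 over all genes tested, so these 3 stood below the middle gene. Prkar1b, a regulatory subunit of protein kinase A, was the 1 gene called (1.32 ± 0.39, adjusted p 0.0243), beside 6.14% of all genes. Of 8 tested receptor genes for opioids, tachykinins, adenosine, acetylcholine and cannabinoids, Oprk1, the receptor of dynorphin, was called lower at 12 h without the replicate (-0.91 ± 0.23, adjusted p 0.0381) and 7 were not called. The share over all genes in that fit was the same 7.93%.

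Genes whose log2 CPM ran nearly parallel over the 9 libraries without TH 24 h replicate 2 were listed for Drd1, Drd2 and Rasd2. The libraries share the differences in the level of projection neuron markers, which the correlations include. For Drd1 they included Rarb (Pearson r 0.997), Gpr6 (0.995), St8sia3 (0.994) and Drd2 (0.990). For Drd2 they included Gpr6 (0.996), Drd1 (0.990), Adcy5 (0.988) and Rps6ka5 (0.987). Rasd2 had a separate company, with Inf2 (0.983), Prkci (0.976), Epor (0.975), Atp2b1 (0.973) and Fam84b (0.972). Among the 9 genes, Rasd2 ran closest to Rgs9 (0.944) and had an r of 0.626 with Drd1, 0.253 with Tac1 and -0.05 with Pdyn, while Penk and Tac1 had an r of 0.977.

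WAT holds no projection neurons and gave a background for these rows, from libraries of 17.3 to 26.96 M counts. Over its 12 libraries Drd2 and Pdyn had at most 0.163 CPM, Tac1 0.180, Rgs9 0.567 and Ppp1r1b 1.06. Drd1 had 0.272 to 5.21 and Rasd2 0.309 to 8.47. Penk had 8.34 to 13.7 CPM in the 4 PTU libraries. After TH it had 2.83 to 5.22 at 6 h and 2.87 to 4.72 at 24 h, with no overlap with PTU. At 6 h Drd1 (higher) and Pdyn (lower) did not overlap with PTU either, whereas at 24 h both did. The share of all WAT genes without overlap was not computed. No test was run, so a response of these genes to TH in WAT was not tested. Adora2a had 7.30 to 16.4 CPM in WAT, above the 2.28 CPM of TH 24 h replicate 2 in striatum and below the 78.4 CPM or more of the other 9 striatum libraries.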

How the data were processed

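Members and gene lists were chosen with earlier results of these data known. RNA from striatum was prepared on RNeasy columns and libraries with the Lexogen SENSE total RNA kit (NextSeq instrument). The authors aligned reads with Bowtie2 2.2.6.2 to mm10 (GRCm38), dropped alignments of quality below 10 and deposited raw counts per gene from htseqcount, and the annotation and strand setting are not given in the sources used here. Date-named rows of the striatum file (14 rows, at most 0.201% of counts) were left out.

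Counts were fitted with edgeR 4.0.16 (R 4.3.3, TMM factors, 3 groups in 1 model, quasi-likelihood F test, two-sided) over genes with a mean normalised count above 10. The Benjamini-Hochberg adjustment ran over all genes tested, and a gene was called under 0.05. A normalised count is scaled to the mean effective size (total times TMM factor) of the 10 libraries. On counts simulated for 12 h against PTU, 96 of 100 genes changed 4-fold were recovered, with 10 false calls in that run. The changed genes had mean counts above 100 and no difference in striatal content was simulated. Recovery of smaller changes was not examined. Ratios used counts plus 0.5 and exact permutation tests over libraries, two-sided. Alternatives were other size factors, DESeq2 1.42.0 (the tool of the authors), no filter, 2 groups alone, Y-linked or cortical levels as terms, scaling to reference genes, a replicate block and leaving out each library. The text names all 9 genes, up to 4 called or top genes of each other list, and genes from the 5 most like Drd1, Drd2 and Rasd2. The values of 1 reference gene are not reported here.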

Additional observations from a re-analysis of the deposited data

Results flagged for a closer look

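In groups of 4, the gap between the most extreme library and the next was divided by the range of the group, for 32 sets of values, and 11 passed the 0.829 of Dixon's test. Chance gives about 1 in 20. In TH 12 h replicate 1 the normalised counts of Drd2 (0.920), Adora2a (0.860), Ppp1r1b (0.852) and Penk (0.845) stood above those of the other 3 libraries, and this library also had the highest reference level of its group (0.813 against 0.551 to 0.596) and high Xist, whose part was not tested. In TH 12 h replicate 2 the log2 ratio of Drd2 to Drd1 stood below the others (0.886). TH 24 h replicate 2 stood apart in Drd2 to Drd1 (0.977), Rasd2 to Ppp1r1b (0.914), Penk to Tac1 (0.908), Penk to Pdyn (0.899) and Adora2a to Drd1 (0.892), and in the mean of indirect minus direct genes (0.948). It was the library whose reference level was 0.0821.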

How the results depend on the processing

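The limits are the 2 PTU libraries, with which no exact test of a ratio against PTU can pass, and the unequal level of striatal markers in the libraries. Genes called over the whole table, 152 at 12 h, 55 at 24 h and 0 between the times, became 802, 203 and 244 with DESeq2, 308, 104 and 41 with no filter, 471, 263 and 665 with the cortical level as a term, and 0, 4 and 5 under reference scaling. They were 82 at 12 h and 3 at 24 h with the Y-linked level as a term, and 1442 and 0 with the 2 groups alone. With TH 24 h replicate 2 omitted, which was chosen after seeing the data for these combinations, reference scaling gave 987, 27 and 1024, and the Y-linked term 1000 at 12 h and 3 between the times. Leaving out 1 library gave 0 to 1257 at 12 h, 0 to 115 at 24 h and 0 to 78 between the times, the highest counts without TH 24 h replicate 2 and the 0 against PTU without PTU replicate 3 (1 and 1 without PTU replicate 6). The cause of these shifts was not tested.

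Of the log2 changes of the 9 genes, 196 of 252 under other settings kept direction and side of the threshold. At 12 h the cortical term turned Drd1 (0.44), Drd2 (0.80), Adora2a (0.41), Penk (0.15), Ppp1r1b (0.93) and Rgs9 (1.29), and at 24 h Drd1 (0.45), Drd2 (0.52), Adora2a (0.14) and Ppp1r1b (0.59). Between the times it turned Drd2 (-0.27), Adora2a (-0.27), Penk (-0.26), Ppp1r1b (-0.34) and Rgs9 (-0.094). Reference scaling turned Ppp1r1b (0.12) and Rgs9 (0.60) at 12 h, with or without TH 24 h replicate 2, and with it Pdyn at 24 h (0.083) and, between the times, Pdyn (0.57), Drd2 (-0.27), Adora2a (-0.33), Penk (-0.16), Ppp1r1b (-0.31) and Rgs9 (-0.080). Without it, Ppp1r1b at 24 h (0.025) and Tac1 (-0.036), Adora2a (-0.017) and Ppp1r1b (-0.098) between the times turned. The Y-linked term turned Rgs9 at 12 h (0.048, or 0.054 without the replicate) and Adora2a (-0.027) and Ppp1r1b (-0.12) between the times.

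The deviations of same-numbered libraries from their group means had an r of -0.410 to 0.280 over 6 pairs. Libraries of unlike number were not compared, so whether same-numbered libraries share a preparation was not tested. The main fit did not treat them as pairs. A replicate block over the TH libraries gave 7 genes called between the times, none of the 9, and turned Drd2 (-0.21), Adora2a (-0.23), Penk (-0.17), Ppp1r1b (-0.31) and Rgs9 (-0.082). Pdyn was called with DESeq2 at 12 h (-1.12, adjusted p 0.0213) and 24 h (-1.27, adjusted p 0.0133), with no filter at both (adjusted p 0.0463 and 0.0340), with the cortical term at 24 h (-0.82, adjusted p 0.0400) and with the Y-linked term without TH 24 h replicate 2 at 12 h (adjusted p 0.0159) and 24 h (-1.32, adjusted p 0.0278), and Rasd2 with the cortical term at 12 h (1.50, adjusted p 0.0306) and 24 h (1.64, adjusted p 0.0196). With the 2 groups alone Drd1, Pdyn, Tac1, Adora2a and Penk were called lower at 12 h.

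Leaving out 1 library, Rgs9 ran from -0.32 to 0.24 and Rasd2 from -0.21 to 0.76 at 12 h, Ppp1r1b from -0.66 to 0.061 and Rgs9 from -0.054 to 0.74 at 24 h, and Pdyn from -0.35 to 0.059, Adora2a from -0.053 to 0.69 and Ppp1r1b from -0.13 to 0.60 between the times. The log2 ratio of Penk to Tac1 ran from -0.062 to 0.11 at 12 h, from -0.75 to 0.11 at 24 h and between the times, and from -0.32 to 0.046 for both times together. Drd2 to Drd1 ran from -0.61 to 0.0098 at 24 h and from -0.20 to 0.093 together, and Penk to Pdyn from -0.95 to 0.43 at 24 h, -0.65 to 0.73 between the times and -0.58 to 0.0091 together. With medians over libraries, Penk to Tac1 was 0.073, 0.049 and 0.060 (12 h, 24 h, together), Penk to Pdyn 0.35 at 24 h and 0.67 between the times, and Drd2 to Drd1 0.045 together.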
